A study of Drosophila melanogaster with 4 samples.

Results

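The gene slimfast (slif, CG11128, FBgn0037203) encodes a Drosophila transporter that carries cationic amino acids across the plasma membrane, and it is 1 of the 2860 genes listed in each of the deposited tables. It was chosen by its mRNA and footprint values in these same libraries, where its mRNA stood out between the genotypes, so its levels, differences and ranks are a description and carry no test. Whole ovaries of W1118 flies were profiled. The NSUN2 KO flies lack NSUN2, an enzyme that writes 5-methylcytosine (m5C) into tRNAs and some mRNAs, and the wild-type (WT) flies have it. The labels give no further allele, treatment or age for either genotype. Each genotype had 1 poly(A) mRNA library and 1 ribosome footprint library, so each of the 4 groups is a single library and nothing here can be checked against replicates. Footprints are the mRNA fragments of 28 to 30 nt that a ribosome shields from nuclease, and their number reflects ribosome occupancy of the message.

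Amino acids that enter the cell feed the TOR kinase, which promotes growth and protein synthesis when nutrients are plentiful. Slimfast is best known from the larval fat body, where its loss lowers TOR signalling and slows the growth of the whole animal. In adult females, amino acid supply sets the pace of egg production, and slif in fat cells helps to maintain germline stem cells in the ovary. Which cells of the ovary the slif reads came from was not measured: in whole ovaries, fewer cells that make a message and less of it per cell cannot be told apart. In the RefSeq gene table (Release 6 assembly) slif lies on chromosome arm 3L, with 3 annotated transcripts and 3 proteins, and 0 other annotated genes overlap it. Its neighbours there are Ssl1, a subunit of the transcription factor TFIIH, and the non-coding gene lncRNA:CR44688. The values were made on the older dm3 build, so no coordinates are given.

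The deposited expression value is taken here as a signal scaled to library depth and gene length, although its unit was not named. Setting levels against those of other genes within a library rests on this reading. Every listed gene carries an m5C level of at least 0.1. Ranks, medians and shares of all genes therefore refer to the listed genes only, not to every gene expressed in the ovary. The 4 libraries had medians of 27.9 to 33.6 over the listed genes. Whole reads behind the values were recovered from their ratios. In footprints, 97.4% of genes came out as a ratio of whole reads, against 0.490% when the depth constant was moved slightly, and in mRNA the shares were 86.0% and 0.524%. The recovered constants put the depth of the knockout library at 2.01 times that of WT in footprints and 2.58 times in mRNA. In the search for the constant, the next best was 2 times as large. It gave whole ratios for 2464 genes against 2622 in footprints and 1069 against 1472 in mRNA. The depth ratios are thus best fits that could be off by a whole factor. For the constant taken, reads are lower limits, because a factor common to both libraries is lost in a ratio. With a larger constant the reads could be fewer and the counting intervals wider. Counting intervals below rest on these reads, cover counting error only, and say nothing of the spread between flies.

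The largest difference was in mRNA. The slif mRNA value was 116 in the NSUN2 KO library (95% exact Poisson interval 113 to 120, from at least 4667 reads). It was 7.33 in the WT library (6.05 to 8.81, from at least 114 reads). The intervals are far apart, and the WT library, with the fewer reads, sets the precision of the comparison. Without a pseudocount slif mRNA was 15.9-fold higher in NSUN2 KO (95% exact counting interval 13.2 to 19.3). In the NSUN2 KO library slif ranked 281 from the highest of 2860 genes, above 90.2% of them. In the WT library it ranked 2685, above 6.12%. The message was thus among the scarcer listed ones in WT and among the more abundant ones in NSUN2 KO, at 3.46 times the median gene against 0.219 times the median gene in WT.

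**Figure D1:**
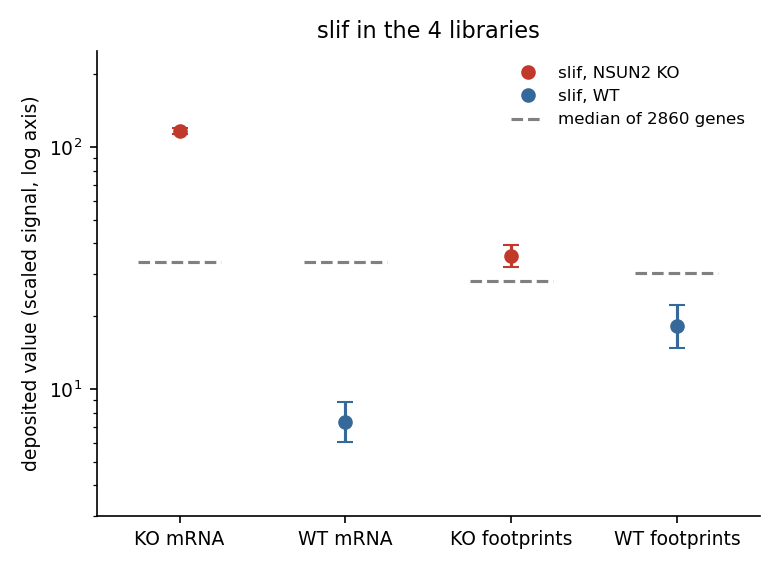
Deposited value of slif (scaled signal, log axis) in the NSUN2 KO and WT libraries of mRNA and of footprints, with 95% exact Poisson intervals from the recovered reads; dashed lines are the medians of the 2860 listed genes. The mRNA value was 116 in NSUN2 KO and 7.33 in WT, on opposite sides of the median, and the footprint value was 35.5 in NSUN2 KO and 18.3 in WT.

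Footprints of slif were also higher in the knockout, by much less. The slif footprint value was 35.5 in the NSUN2 KO library (95% exact Poisson interval 32.1 to 39.3, from at least 383 reads). It was 18.3 in the WT library (14.9 to 22.3, from at least 98 reads). These intervals do not overlap either. The footprint value was 1.94-fold higher in NSUN2 KO (95% exact counting interval 1.55 to 2.45), so whether it reaches 2-fold is not settled by the reads. With median of ratios scaling and with trimmed mean scaling it was 2.02-fold higher, and scaled by the sum of the listed genes 1.83-fold. Slif footprints ranked 1228 from the highest of 2860 genes in NSUN2 KO and 1845 in WT.

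Across genes the 2 differences of slif had very unequal standing. On the log2(value + 0.1) scale, which lowers the difference of genes with low values, slif mRNA differed by 3.97 (NSUN2 KO minus WT), the highest of 2856 genes with a mean value of at least 1. The SD over these genes was 0.44 and their median 0.00. In all, 49 of 2856 genes, slif included, had at least 2-fold more mRNA in NSUN2 KO (1.72%), and 46 had at least 2-fold less (1.61%). The next gene below slif, FBgn0015737, had an mRNA difference of 3.36, a gap of 0.61. The log2 footprint difference of slif was 0.95, rank 66 of 2851 genes, and the 3 genes next above it had 0.96 to 0.97. In footprints the median difference was -0.06 and the SD 0.56, with 56 of 2851 genes at least 2-fold higher (1.96%) and 154 at least 2-fold lower (5.4%). Slif therefore headed the mRNA ranking, while in the footprint ranking 2.28% of genes stood above it and its difference was below the 2-fold mark.

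**Figure D2:**
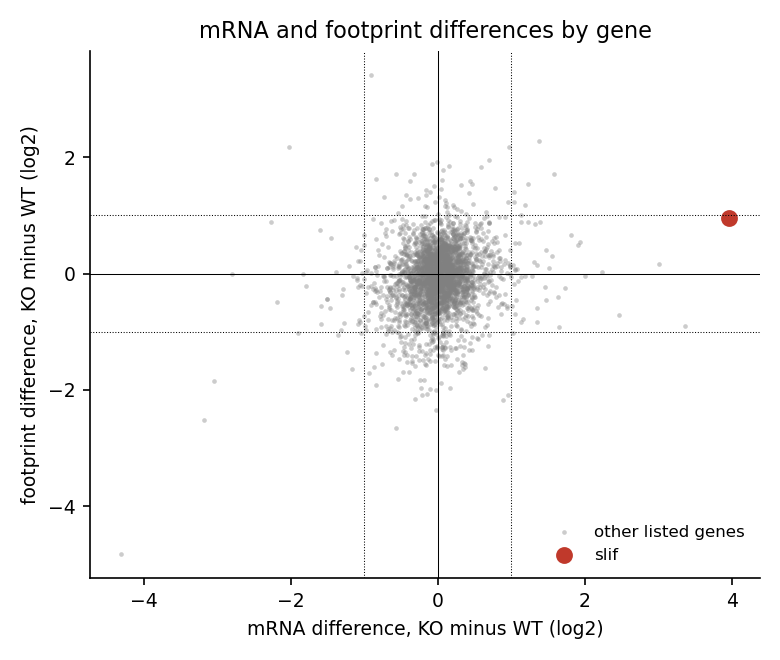
Footprint difference against mRNA difference for each listed gene with a mean value of at least 1 in both assays (NSUN2 KO minus WT, log2(value + 0.1)); dotted lines mark 2-fold and the large point is slif. Slif lies furthest to the right, at 3.97 in mRNA, and just under the 2-fold line in footprints, at 0.95.

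Footprints per mRNA, the ratio that is often called translation efficiency, was lower for slif in the knockout. The ratio was 0.305 in NSUN2 KO and 2.49 in WT, which is 8.17-fold lower in NSUN2 KO (95% counting interval 6.11 to 10.9, from the summed counting variances of both assays on the log scale). In WT the slif ratio ranked 547 of 2860 genes from the highest, above 80.9% of genes, and in NSUN2 KO it ranked 2344, above 18.0%. The median gene had 0.882 in NSUN2 KO and 0.898 in WT. The log2 difference of the slif ratio was -3.02, rank 5 from the lowest of 2848 genes, among which 197 were at least 2-fold lower (6.92%) and 100 at least 2-fold higher (3.51%). The mRNA value is the denominator of this ratio, so the low rank holds the same mRNA measurement again. Both parts of the ratio were higher in NSUN2 KO, the mRNA by more.

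**Figure D3:**
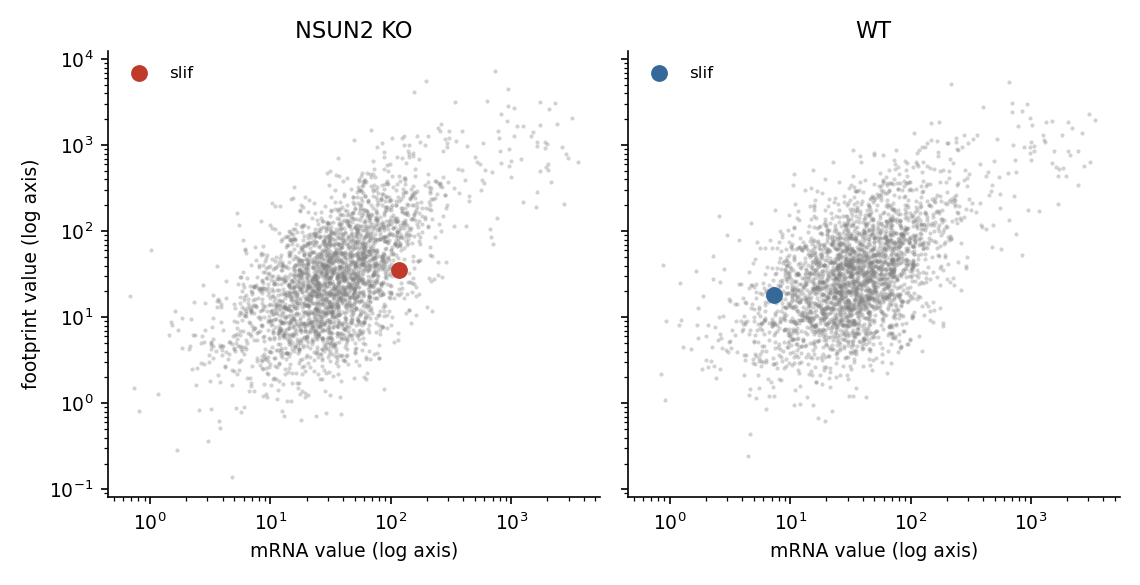
Footprint value against mRNA value (both scaled signals, log axes) in NSUN2 KO at left and WT at right; each small point is a listed gene with a footprint value above 0. Slif sits towards the right in NSUN2 KO, a little above the median footprint value but below most genes of like mRNA value. It had 0.305 footprint units per mRNA unit there. In WT slif sits towards the left, with 2.49.

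Genes of like abundance give a closer scale for these positions. In the knockout, 372 other genes had an mRNA value within 1.5 times that of slif (77.5 to 174), and their median NSUN2 KO footprint value was 88.6. The NSUN2 KO footprint value of slif, 35.5, was 0.401 times that median, and 89 of the 372 genes were lower. In WT, 280 other genes had an mRNA value within 1.5 times that of slif (4.89 to 11.0), with a median WT footprint value of 12.97. The WT footprint value of slif, 18.3, was 1.41 times that median, and 171 of the 280 genes were lower. Relative to messages of its own abundance, slif thus had fewer footprints than most in NSUN2 KO and somewhat more than most in WT, well inside the spread of these genes in both libraries. The 10th and 90th percentiles of footprint values were 18.3 and 342 among the 372 genes and 3.09 and 49.8 among the 280.

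Low levels vary more between libraries, so the mRNA difference of slif was also set beside the same 280 genes. Their log2 mRNA differences ran from -2.19 to 3.36, with a median of 0.10 and an SD of 0.59, which is wider than the 0.44 over all genes. Among the 280, 15 were at least 2-fold higher in NSUN2 KO mRNA (5.36%, beside 1.72% of all genes) and 6 at least 2-fold lower (2.14%, beside 1.61%). The 280 were picked by their WT mRNA value, which enters this difference. Slif headed the ranking of this difference over the listed genes, so the 280 necessarily lie below it there. Partly for the same reason, all 280 had a lower NSUN2 KO mRNA value than slif. Their median there was 8.67, against 116 for slif, while the highest of them reached 92.8. In footprints, 6 genes among the 280 were past 2-fold upwards in NSUN2 KO (2.14%, beside 1.96% of all genes) and 22 past 2-fold downwards (7.86%, beside 5.4%), with a median of -0.12.

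**Figure D4:**
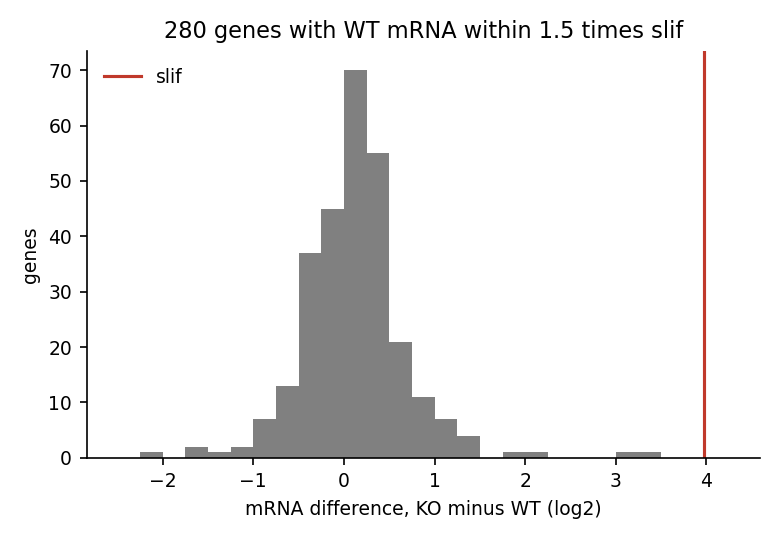
Number of genes by mRNA difference (NSUN2 KO minus WT, log2(value + 0.1)) among the 280 other genes whose WT mRNA value was within 1.5 times that of slif; the line marks slif. The 280 genes run from -2.19 to 3.36 around a median of 0.10. Slif, at 3.97, headed this difference among the listed genes and so necessarily lies above them.

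The slif pattern, a large mRNA difference with a smaller footprint difference, was then sought in other genes. Of the 49 genes at least 2-fold higher in NSUN2 KO mRNA, all passed the minimum in footprints too. In footprints 7 of them were past 2-fold upwards (14.3%, beside 1.96% of all genes) and 1 past 2-fold downwards (2.04%, beside 5.4% of all genes), and the remaining 41, slif among them, lay between. The 49 genes had a median log2 mRNA difference of 1.30 and a median log2 footprint difference of 0.08. They were picked by their mRNA difference and not by footprints, so a smaller footprint difference is partly built into this comparison. By footprint difference slif was rank 8 of the 49, directly below the 7 past 2-fold. The 3 genes at least 8-fold higher in mRNA had log2 footprint differences from -0.90 to 0.95, and slif had the 0.95.

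The other 2 of those 3 genes were also the nearest to slif in pattern, by Euclidean distance over the 4 libraries after each gene's own mean log2 value was taken off. FBgn0033799 was the nearest of 2847 genes, at a distance of 0.91 against a median of 3.18. Its mRNA value was 41.3 in NSUN2 KO and 5.05 in WT, and its footprint value was 11.4 in NSUN2 KO and 10.1 in WT. FBgn0033799 was thus higher in NSUN2 KO mRNA with footprint values close together. Its mRNA fold of 8.18 rests on at least 8 WT reads and has a 95% exact counting interval of 4.06 to 19.3. The interval would be narrower if more reads lay behind it. Footprint reads of FBgn0033799 were not recovered, so its footprint values have no counting interval. FBgn0015737 was next, at 1.44. Its mRNA value was 92.8 in NSUN2 KO and 8.95 in WT, and its footprint value was 24.2 in NSUN2 KO and 45.4 in WT. FBgn0015737 therefore parted from slif in footprints, which were lower in the knockout. Its mRNA reads were not recovered, so its mRNA difference has no counting interval. The next gene in order also lay at 1.44 after rounding, with footprint values of 12.6 in NSUN2 KO and 12.4 in WT. The 5 nearest genes, picked by these same library values, had log2 mRNA differences from 1.74 to 3.36. Any other gene is below slif there, since slif headed that ranking. The log2 footprint differences of the 5 ran from -0.90 to 0.66, below the 0.95 of slif. The tables give identifiers without names, and these are not named here. With the distance taken over the 2 differences alone, 3 of the 5 nearest genes were shared.

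The m5C level listed for slif was modest. Each table lists the highest m5C level of a gene as a fraction, the same in all 4 tables, and the coverage and the site behind it are not given, so its depth is unknown. For slif it was 0.170, rank 2037 of 2860 genes from the highest, where the median gene had 0.269 and the range was 0.1 to 0.991. Within 0.05 of the slif level there were 811 other genes, of which 17 were at least 2-fold higher in NSUN2 KO mRNA (2.10%) and 18 at least 2-fold lower (2.22%), near the 1.72% and 1.61% of all genes. The 811 genes had a median log2 mRNA difference of -0.01, with 3.01 as the highest, and a median log2 footprint difference of -0.02. Most genes with an m5C level like that of slif had mRNA differences near 0. Among the 49 genes at least 2-fold higher in NSUN2 KO mRNA, the lowest m5C level was 0.106, the median 0.177 and the highest 0.985. Slif stood near the middle of them, with 23 lower and 25 higher.

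**Figure D5:**
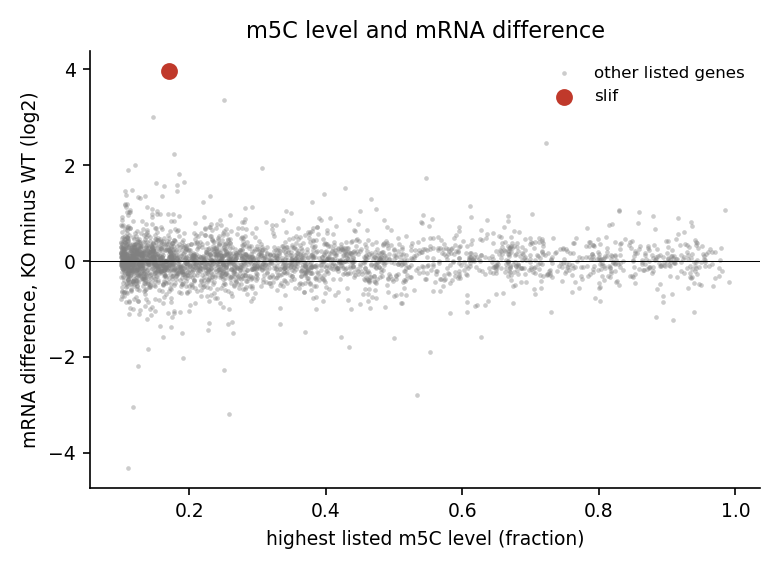
mRNA difference (NSUN2 KO minus WT, log2(value + 0.1)) against the highest listed m5C level of each gene (fraction) for the 2856 genes with a mean mRNA value of at least 1; the large point is slif. Slif has an m5C level of 0.170, below the median of 0.269, and the highest mRNA difference, 3.97.

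The remaining genes of the chosen pathway lists could not be set beside slif. Of the 2860 identifiers, the gene table paired 18 with a symbol. None of 98 symbols of amino acid transporters, TOR and insulin signalling, the amino acid shortage response and m5C enzymes was among the 18. The 98 include slif itself, so the lack of matches reflects the pairing and does not show that these genes are unlisted. None of 45 markers of germ line, follicle cells, fat body, muscle, gut, trachea and blood cells was among the 18 either. The labelled tissue and any fat body RNA beside it were therefore not checked here. The targeted gene was not identified, so no value checks the knockout. The 18 genes with a symbol had log2 mRNA differences from -0.38 for Asx, a Polycomb-group gene, to 1.05 for Aldh, a mitochondrial aldehyde dehydrogenase. Slif, at 3.97, headed the mRNA ranking of the listed genes, so it necessarily lay beyond these 18. In footprints the 18 ran from -1.004 for the ubiquitin ligase gene Herc4 to 0.53 for Aldh, below the 0.95 of slif.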

How the data were processed

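Per the labels' protocols, ovary lysates were digested with micrococcal nuclease, monosomes were taken from a gradient, and fragments of 28 to 30 nt were made into a small RNA library after rRNA depletion; mRNA libraries came from poly(A) RNA with a directional kit. Whether counting used strand was not stated. Named in the submitters' processing notes are the dm3 build, HTSeq, cutadapt and TopHat2; the annotation, the scaling and the choice of listed genes were not given in the sources used. Each deposited expression value is taken to be a signal scaled by the authors to depth and gene length (TPM or a kind of FPKM), as the unit was not named. The deposited m5C level is a fraction, per the file headers the highest of the gene.

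slif and all gene lists were chosen with earlier results of these data known. Differences are log2(value + 0.1), NSUN2 KO minus WT, among genes with a mean value of at least 1 in the assays used. With 1 library per group no test was run. Whole reads were recovered as the simplest ratio of whole numbers up to 6000 that matched a gene's KO to WT ratio, times 1 depth constant per assay, within a relative tolerance of 6e-10. The constant that gave the simplest ratios was taken; if it were off by a whole factor, this would change the reads by that factor. The same code was tested on simulated libraries. Of the genes recovered there, 58.6 to 60.7% had exact reads. Another 39.3 to 41.4% had a whole fraction of the true reads, and 0% came out too high. These shares hold where the true depth constant is found, as it was in the simulated libraries. The shifted constant in the report was moved by 1e-06 of its size. Fold intervals are exact Clopper-Pearson intervals (scipy 1.17.1) of the knockout's share of a gene's reads. The labels name no molecular identifiers, so reads may include PCR copies.

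Named genes are slif, genes next to it in a ranking, the 5 nearest in pattern and members of fixed lists; as most identifiers carry no names, only 2 unnamed ones are printed. Aldh, Asx and Herc4, outside this rule, were named after their values were seen, as the ends of the range of the 18 genes with a symbol, and the pairing of slif with its own identifier came with the choice of the gene. Sequences are not shown, since the tables used here hold none. Alternatives were 4 other scalings, pseudocounts of 1 and 0.01, other minimum values and a 1.5-fold threshold; a fold without pseudocount was added after seeing the data.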

Additional observations from a re-analysis of the deposited data

How the results depend on the processing

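No paired analysis was possible because all groups hold a single library. Under all 21 alternatives of scaling and pseudocount the 3 slif differences stayed within their counting intervals: from 3.82 to 4.02 in mRNA, 0.87 to 1.02 in footprints and -3.08 to -2.89 in footprints per mRNA. slif was rank 1 in the mRNA difference under all 4 alternatives of pseudocount and minimum value, and from rank 58 to 68 in footprints; a scaling shifts all genes alike and was not tried on ranks. With a pseudocount of 1 slif was rank 2 from the lowest in footprints per mRNA in place of rank 5. Of the 54 recomputed counts of genes past 2-fold, 48 stayed within 1.5 times the reported one. The other 6 came from the 1.5-fold threshold, which admits smaller differences: 171 genes higher and 163 lower in mRNA, 251 and 434 in footprints, and 309 and 521 in footprints per mRNA. Depth limits the slif comparison through the WT libraries, with at least 114 mRNA and 98 footprint reads for the depth constants taken.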
